A study of Homo sapiens with 8 samples.

Results

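The 10 genes described here are best known from T cells and natural killer (NK) cells, and they were followed in a leukaemia line of the myeloid lineage: CD3D, CD3E, CD3G, CD247, CD8A, PRF1, GZMA, GZMB, CD7 and CD2. They were taken by name from a list of T cell receptor complex, cytolytic and T-lineage surface genes, chosen with earlier results of these data known. All 10 were found by Ensembl identifier among the 34618 genes of the deposited tables. The study sequenced stranded poly(A) RNA from 8 libraries of THP1, a line established from an acute monocytic leukaemia. In the 4 MOCK libraries the cells carried an empty vector, and in the 4 RRM2_OE libraries they carried the iRxI/AxA mutant, named in the file headers as RRM2 OE. The RRM2 protein is a subunit of ribonucleotide reductase, the enzyme that supplies deoxyribonucleotides for DNA synthesis. Both groups grew with doxycycline at 2 µg/mL, so no library shows the cells without the drug. The labels do not say whether replicates were separate cultures or whether a line was 1 clone, and p-values therefore measure only the spread between these libraries.

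The T cell receptor has no signalling tail of its own and depends on the CD3 delta, epsilon and gamma chains and on the zeta chain, encoded by CD3D, CD3E, CD3G and CD247. In T cells the chains assemble together in the endoplasmic reticulum, and phosphorylation of their activation motifs by the kinase LCK starts the signal. Cytotoxic T and NK cells kill by releasing granules that hold perforin (PRF1), a pore former, and granzymes, proteases that enter the target cell. CD7 and CD2 are early surface proteins of T and NK cells, and CD7 is also known as an aberrant antigen on part of acute myeloid leukaemias.

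Library totals lay between 10994255 and 11686152 counts. For comparisons of 1 gene between libraries, levels are given as CPM, the count divided by the library size (scaled by edgeR TMM factors) times 1e+06. RRM2 itself was at 116 to 128 CPM in MOCK and at 215 to 236 CPM in RRM2_OE, a log2 fold change of 0.87 (SE 0.05, edgeR adjusted p = 5.64e-07). Of the defining monocyte genes, LYZ was at 1705 CPM in MOCK, CD33 at 120.3 CPM, CSF1R at 96.4 CPM and CD14 at 9.72 CPM, while CD68 was at 0.67 CPM. CDKN2A, commonly described as deleted in THP1, was at 44.6 to 56.3 CPM over the 8 libraries, so the label of the line is used here as given. Deviations from the group means ran with odd and even replicate numbers: across groups, libraries of like parity correlated at 0.225 to 0.294 and libraries of unlike parity at -0.276 to -0.212, and each group holds 2 of either kind.

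The 10 genes fell into 2 sets by level. Levels between genes are given per length, in the authors' RPKM (reads scaled to the length of a gene's exons and to the library total). PRF1 had the highest level, 30.8 RPKM on average over the 8 libraries, followed by CD3D at 23.2 and GZMB at 20.1. Of the genes that entered the test described below, 90.3% had a lower mean RPKM than PRF1, 86.0% a lower one than CD3D and 83.4% a lower one than GZMB. The next gene, CD7, was at 0.668 RPKM, and CD8A at 0.222, CD3E at 0.149, CD2 at 0.0908, CD247 at 0.0302 and CD3G at 0.0226 followed. GZMA was listed at 0 in all 8 libraries.

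PRF1 was above CD3D in 8 of 8 libraries, with no overlap within either group. CD3D was above GZMB in 6 of 8 libraries; the 2 overlapped in MOCK and were apart in RRM2_OE. GZMB was above CD7, and CD7 above CD8A, in 8 of 8 libraries. Between CD8A and CD3E the levels overlapped in MOCK, and from CD3E downwards the ranges of neighbouring genes overlapped in both groups. CD3E was above CD2 in 8 of 8 libraries, CD2 above CD247 in 6, CD247 above CD3G in 3 and CD3G above GZMA in 4, all on few counts.

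**Figure D1:**
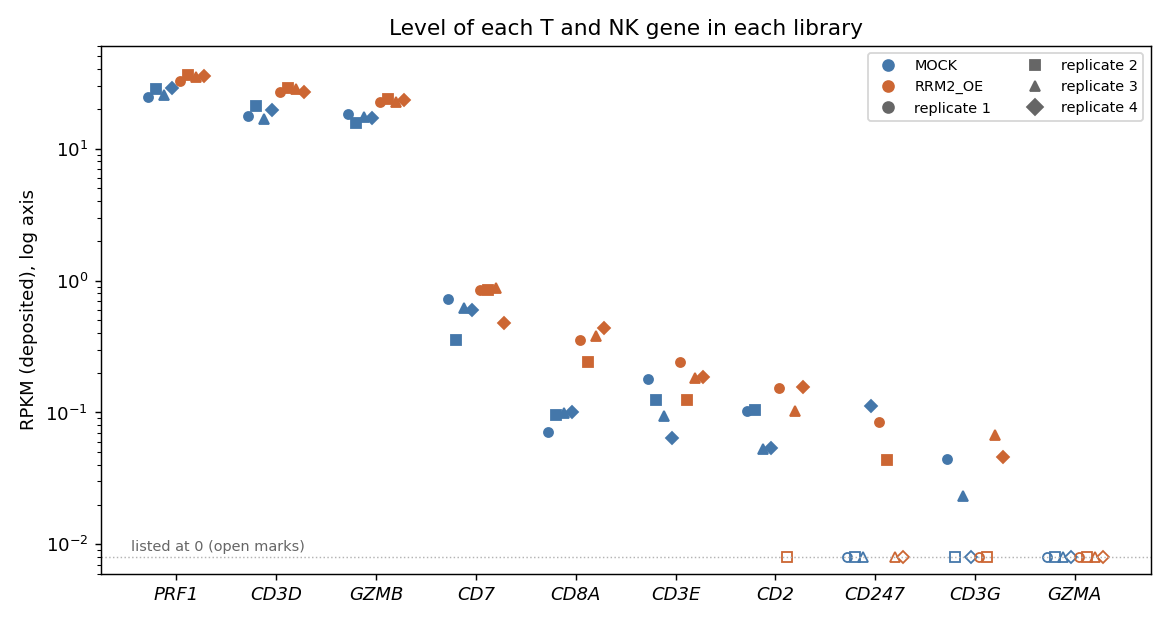
Deposited RPKM of each of the 10 genes (log axis) in each of the 8 libraries, MOCK in blue and RRM2_OE in orange, with the marker shape giving the replicate number and open marks on the dotted line for values listed at 0. The lowest value of PRF1, CD3D and GZMB is 15.8 RPKM (GZMB in MOCK replicate 2), and the highest of the other 7 genes is 0.881 RPKM (CD7).

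The stretch just upstream of the start site is shown for the 3 genes at high level, each of which was also higher in RRM2_OE. It is also shown for GZMA and CD2, which did not reach the test. Sequences are RefSeq promoters of build GRCh38.p14, the 250 bases before each gene's start, 5′ to 3′ on the gene's strand; 7 of the 10 genes had an entry. Capitals mark matches, on either strand, to any of 6 short motifs, where N stands for any base. AGGAAG is the core bound by many factors of the ETS family, such as PU.1 in myeloid cells and ETS1 in T cells. TGTGGT is the core of RUNX sites, whose factors act in both lineages. CAGCTG is an E-box, the site of E proteins and their tissue partners. TGANTCA is the AP-1 site of Fos and Jun dimers. TATAAA is the TATA box near some start sites. GATAAG is the site of GATA factors.
CD3D: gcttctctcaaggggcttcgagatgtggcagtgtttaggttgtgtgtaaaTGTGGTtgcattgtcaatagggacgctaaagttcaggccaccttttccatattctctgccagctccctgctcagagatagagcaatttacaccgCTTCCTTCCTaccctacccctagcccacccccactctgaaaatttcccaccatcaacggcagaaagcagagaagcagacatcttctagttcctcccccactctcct
PRF1: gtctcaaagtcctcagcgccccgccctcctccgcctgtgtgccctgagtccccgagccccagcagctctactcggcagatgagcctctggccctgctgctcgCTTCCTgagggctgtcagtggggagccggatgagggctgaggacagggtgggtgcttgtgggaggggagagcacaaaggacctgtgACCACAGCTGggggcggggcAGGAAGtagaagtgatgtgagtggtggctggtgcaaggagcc
GZMB: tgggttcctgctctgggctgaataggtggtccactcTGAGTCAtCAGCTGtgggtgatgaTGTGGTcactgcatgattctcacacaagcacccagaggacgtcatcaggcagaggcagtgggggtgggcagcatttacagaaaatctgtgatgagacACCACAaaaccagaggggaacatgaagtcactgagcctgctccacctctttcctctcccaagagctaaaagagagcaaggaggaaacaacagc
GZMA: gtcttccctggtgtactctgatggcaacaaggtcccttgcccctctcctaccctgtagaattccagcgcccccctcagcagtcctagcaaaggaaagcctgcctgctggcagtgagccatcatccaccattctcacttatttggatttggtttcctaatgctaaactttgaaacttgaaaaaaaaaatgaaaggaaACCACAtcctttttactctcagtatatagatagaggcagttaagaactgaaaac
CD2: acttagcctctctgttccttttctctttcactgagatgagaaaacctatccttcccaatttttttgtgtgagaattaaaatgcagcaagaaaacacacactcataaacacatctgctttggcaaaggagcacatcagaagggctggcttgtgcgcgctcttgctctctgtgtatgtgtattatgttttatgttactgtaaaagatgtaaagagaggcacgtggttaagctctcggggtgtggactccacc

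CD3D, here at chr11:118342706-118342955 on the minus strand, held 2 overlapping ETS-type matches, from 106 to 97 bases before the start, and a RUNX-type match from 200 to 195. PRF1, at chr10:70602742-70602991 on the minus strand, held ETS-type matches from 148 to 143 and from 42 to 37 bases before the start, and a RUNX-type match from 62 to 57 that overlaps an E-box from 58 to 53. GZMB, at chr14:24634191-24634440 on the minus strand, held 2 RUNX-type matches (from 190 to 185 and from 93 to 88), an E-box from 206 to 201 and an AP-1-type match from 214 to 208, and no ETS-type match. GZMA, at chr5:55102396-55102645 on the plus strand, held 1 RUNX-type match, from 54 to 49, and CD2, at chr1:116754180-116754429 on the plus strand, held none of the 6. Among 35116 promoters of the same length, 28.7% held the ETS-type motif, 11% the RUNX-type, 14.0% the E-box, 6.57% the AP-1-type, 10.7% TATAAA and 5.65% the GATA-type. A RUNX-type match was thus present in all 3 genes at high level and in GZMA, which was not detected. These matches are letters in a window and were not measured as bound sites.

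Of the 10 genes, 4 were called higher in RRM2_OE (CD3D, CD8A, PRF1 and GZMB), 0 were called lower, CD7 was tested and not called, and 5 had too few counts to be tested. Called means an adjusted p below 0.05 in edgeR's quasi-likelihood test over the 15286 genes that passed its low count filter. Across those genes 12.8% were called in either direction, 7.41% higher and 5.42% lower. All 4 RRM2_OE libraries lay above all 4 MOCK libraries for these 4 genes, as they did for 10.5% of the genes tested, and lay below for 0 of the 5 tested members (8.89% of the genes tested). CD8A passed the filter through its RRM2_OE libraries alone, so its call had to point this way, and the count of 4 is no more than a description of the list. Leaving out any single library left 4 of the genes called higher and 0 lower. Those fits kept the filter set on all libraries, so the part of CD8A in that count is again a description. In bulk RNA a change in the share of cells that express a gene and a change in RNA per cell cannot be told apart.

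**Figure D2:**
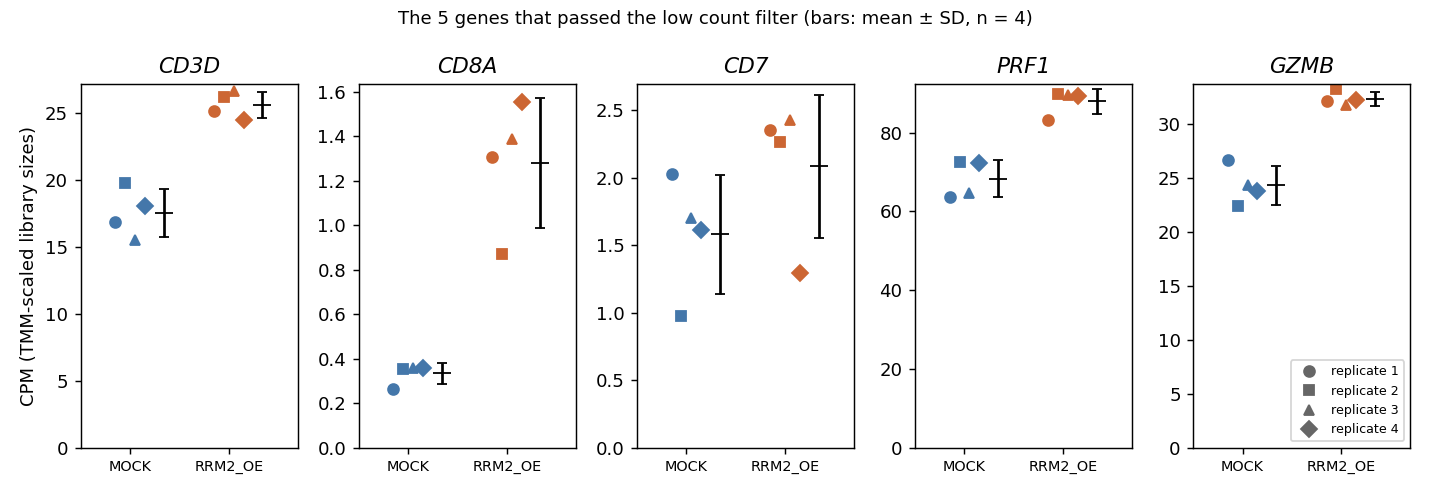
CPM on TMM-scaled library sizes of the 5 genes that passed the low count filter, 1 panel per gene with its own linear axis from 0, points for the 4 MOCK (blue) and 4 RRM2_OE (orange) libraries and bars for mean ± SD. The 2 groups are apart for CD3D, CD8A, PRF1 and GZMB and overlap for CD7, where RRM2_OE replicate 4 lies at 1.30 CPM.

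Of the CD3 and zeta chains, CD3D alone was tested. CD3D (ENSG00000167286, chromosome 11, 118209669 to 118213459 of hg19, minus strand) had 191, 223, 173 and 201 counts in MOCK replicates 1 to 4 and 289, 300, 307 and 283 in RRM2_OE. All 4 RRM2_OE libraries lay above all 4 MOCK libraries. Its mean rose from 17.5 ± 1.80 to 25.6 ± 0.973 CPM (SD, n = 4 each), 1.46-fold, with a log2 fold change of 0.55 (SE 0.08, edgeR adjusted p = 0.000833).

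The partner chains stayed near 0. CD3E (ENSG00000198851, chromosome 11, 118175260 to 118186890, plus strand), which pairs with both the delta and the gamma chain, had 6, 4, 3 and 2 counts in MOCK and 8, 4, 6 and 6 in RRM2_OE. Per length, CD3D was 97.5 to 308 times as abundant as CD3E in the single libraries. CD3G (ENSG00000160654, chromosome 11, 118215059 to 118225876, plus strand) had 3 counts in MOCK and 5 in RRM2_OE over 4 libraries each, with counts in 4 of 8 libraries. CD247 (ENSG00000198821, chromosome 1, 167399877 to 167487847, minus strand), the zeta chain, had 5 counts in MOCK, all in replicate 4, and 6 in RRM2_OE, in replicates 1 and 2. It overlaps 2 unnamed genes on the same strand. Those totals correspond to 0.331 CPM for CD3E in MOCK, on unscaled totals (95% exact binomial interval 0.185 to 0.547) and 0.522 in RRM2_OE (0.334 to 0.777), intervals that cover counting error only. Without the low count filter, edgeR gave a log2 fold change of 0.62 for CD3E (adjusted p = 0.586), 0.61 for CD3G (adjusted p = 0.822) and 0.20 for CD247 (adjusted p = 0.962), so no difference in these 3 genes was detectable at this depth. FCER1G, the Fc receptor gamma chain that resembles zeta and serves myeloid receptors, was at 192 RPKM over the 8 libraries.

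CD8A encodes the alpha chain of the CD8 co-receptor of cytotoxic T cells, and it was close to its limit of detection in MOCK. CD8A (ENSG00000153563, chromosome 2, 87011729 to 87035519, minus strand) had 3, 4, 4 and 4 counts in MOCK and 15, 10, 16 and 18 in RRM2_OE. The groups did not overlap, and the mean went from 0.334 ± 0.0465 to 1.28 ± 0.291 CPM (SD, n = 4 each). Its log2 fold change was 1.91 (SE 0.32, 95% interval 1.21 to 2.60, edgeR adjusted p = 0.00194), given as a description since the gene was tested only because its RRM2_OE libraries passed the filter. DESeq2 gave it no adjusted p, and it did not enter the test where 1 CPM in 4 libraries was required. CD8B, the partner chain 53.5 kb away, had 0 to 2 counts in every library.

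Of the cytolytic genes, PRF1 and GZMB were both high and both rose. PRF1 (ENSG00000180644, chromosome 10, 72357104 to 72362531, minus strand) had 723, 821, 723 and 806 counts in MOCK and 956, 1031, 1032 and 1033 in RRM2_OE, all above MOCK. It rose from 68.3 ± 4.79 to 87.9 ± 3.16 CPM (SD, n = 4 each), 1.29-fold, with a log2 fold change of 0.36 (SE 0.06, edgeR adjusted p = 0.00123). Within MOCK, PRF1 was at 63.6 and 64.8 CPM in replicates 1 and 3 and at 72.6 and 72.3 CPM in replicates 2 and 4. In a fit with both terms PRF1 differed by -0.11 on the log2 scale between odd and even replicate numbers (edgeR adjusted p = 0.0344), and its log2 fold change was 0.43 with the odd-numbered libraries alone and 0.31 with the even-numbered ones.

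GZMB, granzyme B, the granzyme that cleaves after aspartate and can activate caspases, lies at 25100160 to 25103473 on the minus strand of chromosome 14 (ENSG00000100453). Its counts were 303, 253, 272 and 265 in MOCK and 369, 381, 366 and 373 in RRM2_OE, again without overlap. The mean rose from 24.3 ± 1.79 to 32.3 ± 0.623 CPM (SD, n = 4 each), 1.33-fold, with a log2 fold change of 0.41 (SE 0.07, edgeR adjusted p = 0.00167). A gene without counts, ENSG00000258657, overlaps GZMB on the opposite strand.

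GZMA, granzyme A, the tryptase-like granzyme (ENSG00000145649, chromosome 5, 54398476 to 54406080, plus strand), had 0 counts in each of the 8 libraries. Over their joint total, a count of 0 allows up to 0.0329 CPM for GZMA. GZMK, its neighbour, was also at 0 in all 8, GZMH had 0 or 1 count per library, and GZMM had 1 to 5. GZMB was thus the single granzyme gene of the 5 measured that had more than 5 counts in any library.

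CD7 and CD2 were low. CD7 (ENSG00000173762, chromosome 17, 80272744 to 80275478, minus strand) had 23, 11, 19 and 18 counts in MOCK and 27, 26, 28 and 15 in RRM2_OE. The groups overlapped, since RRM2_OE replicate 4 was below 3 of the MOCK libraries. CD7 went from 1.58 ± 0.441 to 2.08 ± 0.53 CPM (SD, n = 4 each), with a log2 fold change of 0.40 (SE 0.26, 95% interval -0.16 to 0.96, edgeR adjusted p = 0.368), an interval that reaches past the changes of CD3D, PRF1 and GZMB. CD2 (ENSG00000116824, chromosome 1, 117297007 to 117311850, plus strand), an adhesion receptor for CD58, had 2, 2, 1 and 1 counts in MOCK and 3, 0, 2 and 3 in RRM2_OE. Without the low count filter its log2 fold change was 0.35 (edgeR adjusted p = 0.870).

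The 3 genes at high level were compared with each other as log2 ratios of RPKM within each library, 3 pairs in all. The ratio of CD3D to PRF1 was -0.52 ± 0.08 in MOCK and -0.33 ± 0.06 in RRM2_OE (SD, n = 4 each), a difference of 0.19 with a two-sided exact permutation p = 0.0286, the smallest that 4 against 4 libraries can give, and p = 0.0857 after Benjamini-Hochberg adjustment over the 3 pairs. GZMB to PRF1 differed by 0.05 (exact permutation p = 0.686, adjusted p = 0.686) and CD3D to GZMB by 0.14 (exact permutation p = 0.314, adjusted p = 0.471). No pair passed after adjustment, but a pair that differed alone could reach no adjusted p below 0.0857 here. Unequal rises among the 3 genes are therefore undecided.

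Beside these genes, 18 markers of T and NK cells were listed (the 10 genes and TRAC, TRBC1, TRBC2, TRDC, NCAM1, KLRD1, NKG7 and GNLY), of which 17 were measured and TRAC was not analysed here. Of the 17, 8 had fewer than 10 counts in every library: CD3E, CD3G, CD247, CD2, GZMA, TRBC1, NCAM1 and KLRD1. The summed level of the 17 lay at 182 to 189.7 CPM in MOCK and at 239 to 255 CPM in RRM2_OE. The counts of calls that follow stand against 7.41% higher and 5.42% lower over all genes tested, and lists of this size hold few genes. Because the lists were chosen with earlier results of these data known, these counts only describe them. Summed over their lists, monocyte and macrophage markers lay at 1996 to 2183 CPM in MOCK and 2531 to 2734 CPM in RRM2_OE, with 6 of 12 tested called higher and 0 lower. By its level given above, LYZ made up most of the MOCK sum. Granulocyte progenitor markers lay at 5479 to 6343 CPM in MOCK and 2787 to 3180 CPM in RRM2_OE, with 9 of 10 tested called lower and 1 higher. B cell markers were at 159 to 177 CPM in MOCK and 70.6 to 77.0 CPM in RRM2_OE, of which IGLL1, the surrogate light chain gene of pre-B cells, made up 146 to 162 and 54.2 to 59.1 CPM; 2 of 6 tested were higher and 1 lower. Erythroid and megakaryocyte markers lay at 1107 to 1173 against 967 to 1095 CPM, and non-haematopoietic ones at 27.7 to 34.3 against 31.5 to 35.5 CPM; 2 of 14 and 0 of 2 tested were higher, 4 and 0 lower. The part of these shifts in the values of the 10 genes was not tested.

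The wider receptor and signalling list, 42 measured genes of which 35 were tested, had 4 genes called higher and 1 lower, with a median log2 fold change of 0.06 (all genes tested: -0.00). With replicate number as a block, 8 were higher and 3 lower, against 15.1% and 14% of all genes. SLA, an adaptor that limits receptor signalling, rose by 0.40 on the log2 scale (edgeR adjusted p = 0.000347), PAG1, a membrane adaptor for CSK, by 0.20, and DGKA, a diacylglycerol kinase, by 0.23. DGKZ, another diacylglycerol kinase, fell by 0.30 on the log2 scale (edgeR adjusted p = 0.0180). The PAG1 and DGKZ calls were each lost without MOCK replicate 3, RRM2_OE replicate 2 or RRM2_OE replicate 4 (edgeR adjusted p up to 0.0605).

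The most abundant genes of that list per length were FCER1G, the phosphatase PTPN6 at 68.8 RPKM and TRGC2, a constant region gene of the gamma receptor chain, at 68.6 RPKM. None was called; PTPN6 gave 0.08 (edgeR adjusted p = 0.285, and adjusted p = 0.0214 with the block). Other constant region transcripts were present as well: TRBC2 at 43.5 RPKM, TRDC at 20.6 and TRGC1 at 19.3, whereas TRBC1 had 0 to 4 counts per library. TRBC2 gave a log2 fold change of 0.25 (edgeR adjusted p = 0.0785, and adjusted p = 0.00151 with the block). TRBC1 and TRBC2, and TRGC1 and TRGC2, are near-identical copies, which makes the split of reads between them uncertain. LCK, chosen here after its values were seen, had 0 counts in the 4 MOCK libraries and 2, 4, 3 and 2 in RRM2_OE, and ZAP70, the kinase that binds phosphorylated zeta, had 1 to 6 counts in every library.

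Among 23 cytolytic granule genes, 20 were tested, 4 were higher and 3 lower, with a median of 0.03. With the block 7 were higher, against 15.1% of all genes. NKG7, a granule membrane protein, rose from 25.6 ± 2.87 to 39.4 ± 6.77 CPM (SD, n = 4 each; log2 fold change 0.62, edgeR adjusted p = 0.00669). GNLY, granulysin, rose from 3.00 to 5.10 CPM (0.76), SERPINB9, the inhibitor of granzyme B, by 0.53 (edgeR adjusted p = 0.000246) and CST7, cystatin F, by 0.29. SERPINB1, an inhibitor of neutrophil serine proteases, fell by 0.33, the lysosome regulator LYST by 0.25 and the vesicle protein VAMP8 by 0.24 on the log2 scale. The VAMP8 call was lost without any 1 of MOCK replicates 1, 3 and 4 and RRM2_OE replicates 2 and 4 (edgeR adjusted p up to 0.119). SRGN, the granule proteoglycan serglycin, was the most abundant at 7671 RPKM, followed by CST7 at 238 and VAMP8 at 179, and SRGN gave 0.02 (edgeR adjusted p = 0.892).

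Of 32 NK and innate lymphoid receptor genes, 17 had fewer than 10 counts in every library and 15 were tested, of which 3 were higher and 0 lower, with a median of 0.18. With the block 8 were higher, against 15.1% of all genes. The 3 were SLAMF7, a homophilic receptor, from 42.6 ± 1.53 to 66.4 ± 0.675 CPM (SD, n = 4 each; log2 fold change 0.64, edgeR adjusted p = 6.69e-06), TYROBP, the adaptor DAP12 that myeloid cells also use, by 0.32, and IL2RB, the interleukin 2 receptor beta chain, by 0.38. The IL2RB call was lost without any 1 of MOCK replicates 2, 3 and 4 and RRM2_OE replicates 1 and 3 (edgeR adjusted p up to 0.0650). TYROBP was at 248 RPKM, HCST, the adaptor DAP10, at 98.3 and CD96, a receptor also known from leukaemic stem cells, at 73.5. CD96 gave -0.00 (edgeR adjusted p = 0.978), and HCST 0.18 (edgeR adjusted p = 0.557, and adjusted p = 0.00207 with the block); leaving out single libraries moved HCST between 0.09 and 0.28.

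Of 26 tested T lineage surface and thymocyte genes, 10 were higher and 1 lower, with a median of 0.27. With any 1 library left out, 7 to 9 were higher and 1 lower. IL7R, the interleukin 7 receptor alpha chain, rose by 0.62 (edgeR adjusted p = 4.60e-06), the early activation antigen CD69 by 0.51 (edgeR adjusted p = 4.88e-05), and CD1C, a lipid-presenting molecule that dendritic cells also carry, from 3.51 ± 0.635 to 7.46 ± 0.904 CPM (SD, n = 4 each; log2 fold change 1.08, edgeR adjusted p = 0.00052). With the block 3 genes of this list were lower, against 14% of all genes. CD6, a scavenger-type receptor of T cells named after its values were seen, went from 0.69 ± 0.0885 to 2.02 ± 0.651 CPM (log2 fold change 1.53), a description only, since CD6 passed the filter only through RRM2_OE. The 10 called higher and the list median include CD6, a gene that could enter only by being higher. CD52 (310 RPKM), IL2RG (138 RPKM) and SPN (136 RPKM) were the most abundant. They gave 0.20, 0.14 and -0.23, not called in the test without a block (edgeR adjusted p = 0.336, 0.524 and 0.0896) and called with it (edgeR adjusted p = 1.91e-06, 1.04e-04 and 9.99e-09). Leaving out single libraries moved CD52 between 0.13 and 0.30, IL2RG between 0.07 and 0.22 and SPN between -0.28 and -0.18.

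Of 27 tested transcription factors of T and NK development, 7 were higher and 4 lower, with a median of 0.07. ID3, an inhibitor of E proteins, was at 0.935 ± 0.333 CPM in MOCK and 3.62 ± 0.55 CPM in RRM2_OE (SD, n = 4 each; log2 fold change 1.94, edgeR adjusted p = 0.000192). It too passed the filter only through RRM2_OE, so its call is a description, and the 7 called higher and the list median include it. Its relative ID2 rose by 0.37 and NFIL3, a factor of NK development, by 0.31 on the log2 scale. BCL11A fell by 0.50, IKZF2, Helios, by 0.25, MYB by 0.25 and LYL1 by 0.22 on the log2 scale. MYB (86.2 RPKM), ID2 (59.5 RPKM) and LYL1 (38.5 RPKM) were the most abundant. Of the 39 measured, 12 did not pass the low count filter, among them GATA3, TBX21, EOMES, LEF1 and BCL11B, factors of T and NK identity. Other factors known from T cells passed it: RUNX3 was at 135 CPM in MOCK, ETS1 at 41.9, TOX at 12.8 and TCF7 at 0.998. Of these, ETS1 was called (log2 fold change 0.27, edgeR adjusted p = 0.0199), while RUNX3 gave 0.19, TOX -0.13 and TCF7 0.49 (edgeR adjusted p = 0.242, 0.477 and 0.339).

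**Figure D3:**
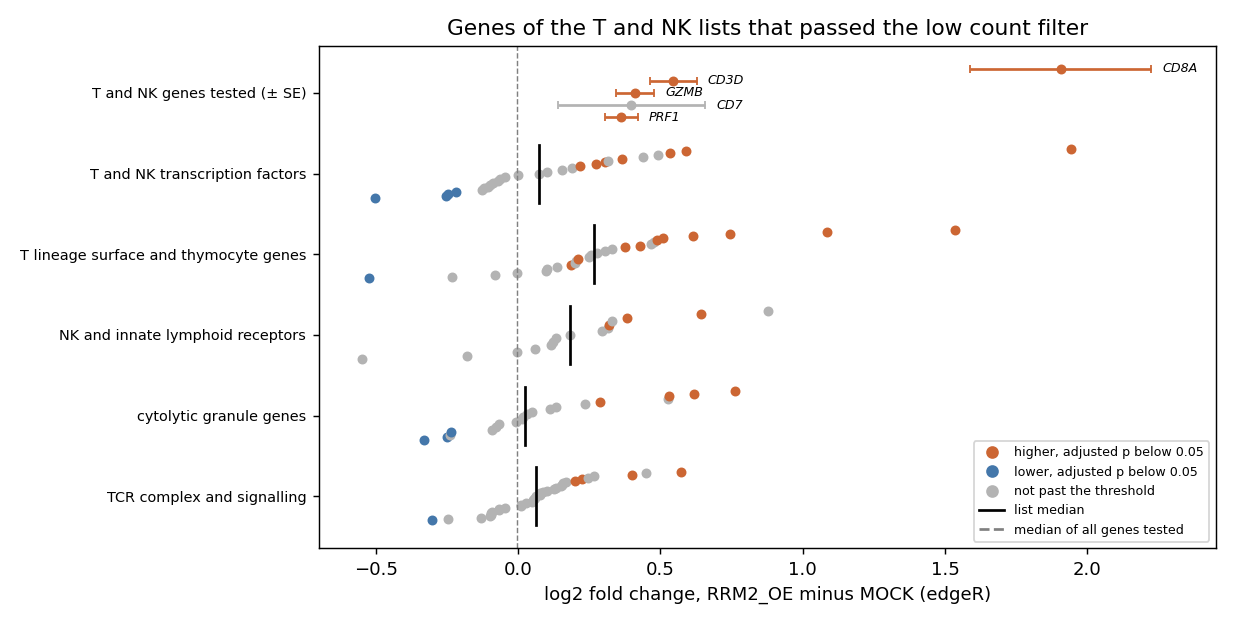
Log2 fold change (RRM2_OE minus MOCK, edgeR) of every tested gene in the 5 wider lists and, in the top row with SE bars, of the 5 tested genes of the main list. Orange points passed the threshold upwards, blue points downwards and grey points did not pass; black ticks are list medians, from 0.03 to 0.27, and the dashed line is the median of all genes tested, -0.00.

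CD3D, CD3E and CD3G lie side by side on chromosome 11, in the region that also holds KMT2A. The start of CD3G is 1.6 kb from that of CD3D on the other strand, and the start of CD3E 38.2 kb away. Of 22 other genes measured within 300 kb of CD3D, 13 were tested, 3 were called higher and 0 lower. Over all genes tested 7.41% were called higher and 5.42% lower, and 13 genes are few. SCN4B, a sodium channel beta subunit 190 kb away, had a log2 fold change of 1.54 (edgeR adjusted p = 2.02e-05), JAML, a leukocyte adhesion molecule 118 kb away, 0.33 (edgeR adjusted p = 0.00229), and MPZL3 0.36 (edgeR adjusted p = 0.0213, lost without RRM2_OE replicate 3 or 4, adjusted p up to 0.0587). All 3 lie on the CD3E side, which holds the smaller part of the tested genes. MPZL2, also on that side, gave 0.30 and was not called (edgeR adjusted p = 0.0845). A difference between the sides was not tested. On the other side no tested gene was called, and log2 fold changes ran from -0.15 (TTC36-AS1, edgeR adjusted p = 0.614) to 0.26 (PHLDB1, edgeR adjusted p = 0.103). There, UBE4A, 16.8 kb away, gave 0.03 (edgeR adjusted p = 0.832) and ATP5MG 0.04 (edgeR adjusted p = 0.762). KMT2A, 93.7 kb away, gave -0.12 (edgeR adjusted p = 0.328, and adjusted p = 0.00487 with the block). Without single libraries KMT2A lay between -0.16 and -0.07.

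**Figure D4:**
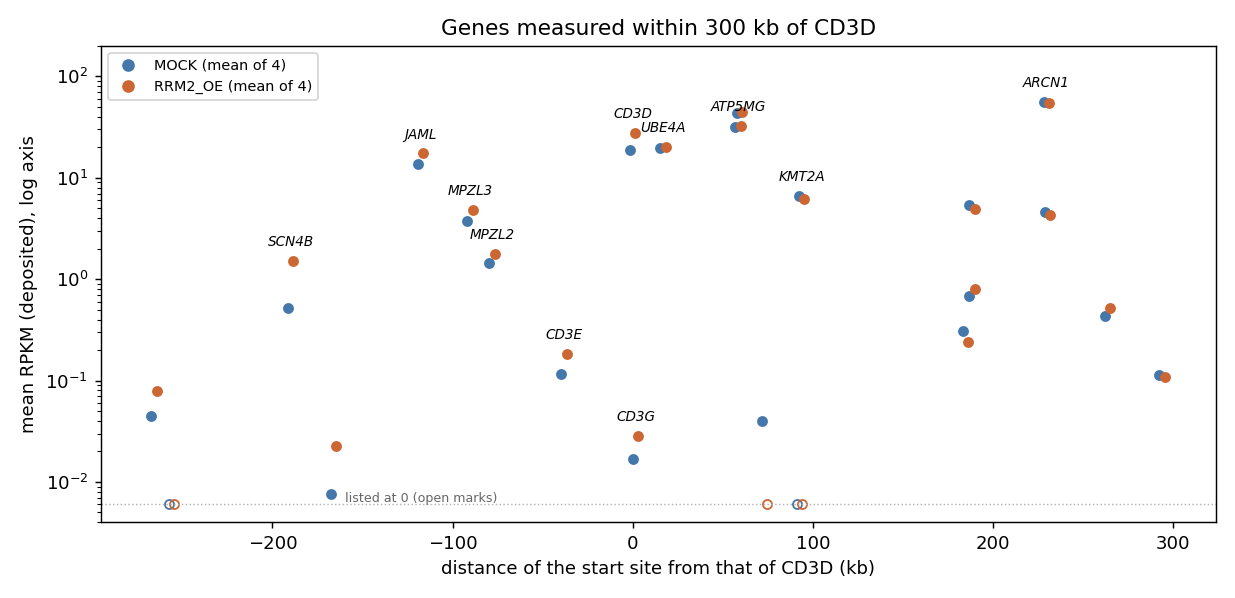
Mean deposited RPKM (log axis) of the genes measured within 300 kb of CD3D against the distance of their start sites from that of CD3D in kb, MOCK in blue and RRM2_OE in orange, offset sideways for legibility, open marks for values listed at 0. CD3D, at 18.7 and 27.6 RPKM, stands between CD3E and CD3G, both below 0.184 RPKM.

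At the GZMB locus, which it shares with GZMH and the neutrophil protease gene CTSG, the single tested neighbour fell. CTSG, 58.0 kb from GZMB, fell from 379 ± 17.6 to 268 ± 17.2 CPM (SD, n = 4 each; log2 fold change -0.50, edgeR adjusted p = 1.10e-04), and GZMH was near 0. None of the 7 other genes within 100 kb of GZMA was tested, all being at or near 0. Around CD8A, RMND5A (-0.02, edgeR adjusted p = 0.878) and CHMP3 (0.01, edgeR adjusted p = 0.972) were the 2 tested genes within 100 kb.

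The 10 genes of the main list were left out of a ranking by likeness to CD3D and CD7. Of the other tested genes, those whose log2 CPM followed CD3D most closely over the 8 libraries were AHCYL1 (Pearson r = 0.993), CD40 (0.990), NEU1 (0.990), LPL (0.986) and ISCU (0.984). For CD7 they were ZNF513 (0.975), CES2 (0.959), ARMH1 (0.957), INSRR (0.955) and APBB3 (0.954). The 8 points share the difference between the groups and that between odd and even replicates, so these values describe likeness across these libraries alone.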

How the data were processed

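Counts per Ensembl gene and RPKM were deposited by the authors, 1 column per library, with exon lengths and hg19 coordinates per the file headers. Per the submitters' processing notes the tools were HTSeq 0.11.2, TopHat2 and bcl2fastq 2.18.0.12, with build hg19; annotation and strand setting were not given in the sources used here. Recomputing RPKM from the counts, column totals and exon lengths matched the deposited values to a relative difference of 2.42e-07. Symbols came from a table of current names (32562 genes) or GENCODE 29 (299 more), and 1757 genes stayed unnamed. Of 252 list entries 248 were matched; TRAC, MRC1, PECAM1 and NEFL were not analysed here.

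The counts entered edgeR 4.0.16 (R 4.3.3). Its filterByExpr kept 15286 genes, library sizes were scaled by TMM, and RRM2_OE was set against MOCK by the robust quasi-likelihood test with no covariate and Benjamini-Hochberg adjustment across every gene tested (threshold 0.05). SE was taken as log2 fold change divided by the root of the F statistic. The procedure was tested on simulated data. limma 3.58.1 and DESeq2 1.42.0 served alternatives. The members and lists were chosen with earlier results of these data known. From each wider list the text names the 3 genes called higher and the 3 called lower with the smallest adjusted p and the 3 with the highest RPKM; DGKA, GNLY, CD6, LCK and other genes beyond that rule were chosen after their values were seen. Results for 2 genes that the rule names are not reported here.

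Deviations of log2 CPM (prior count 2) from group means correlated between same-numbered libraries at 0.251, 0.232, 0.225 and 0.228. These values lie within the range for libraries of like parity (0.225 to 0.294). Only 1 library of 8 had its highest correlation with the same number. A pairing by replicate number was thus not shown, and the main test used none. The block entered as an alternative.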

Additional observations from a re-analysis of the deposited data

Results flagged for a closer look

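Each group of 4 libraries was checked for a highest or lowest library far from the other 3, in 18 groups with any spread. For continuous values chance sets apart about 1 in 20, a rate that does not apply to groups of few counts, such as CD247 and CD8A in MOCK. There were 4 such cases. CD247 was at 0.449 CPM in MOCK replicate 4 and at 0 in the other MOCK libraries. CD8A was at 0.264 CPM in MOCK replicate 1, which is 3 counts against 4 in each of the other MOCK libraries. PRF1 was at 83.2 CPM in RRM2_OE replicate 1, below the other RRM2_OE libraries, and still above every MOCK library. CD7 was at 1.30 CPM in RRM2_OE replicate 4, below the other RRM2_OE libraries.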

How the results depend on the processing

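CD3D, PRF1 and GZMB kept their direction and their call under all 22 alternatives (log2 fold changes 0.42 to 0.68, 0.31 to 0.43 and 0.32 to 0.50, edgeR, limma or DESeq2 adjusted p up to 0.00807). CD8A, tested only through RRM2_OE, lay between 0.31 on log2(RPKM + 1) and 2.08, which is a description. CD7 was called under none (0.16 to 0.57, adjusted p from 0.161 to 0.648). Members called higher were 3 or 4 and lower 0, and the replicate block changed no call among the members. The order of levels was the same on TMM-scaled RPKM. In the lists, the receptor and signalling genes called higher (4) were 2 by limma on log2(RPKM + 1), 2 on log2(RPKM + 0.1), 2 at an adjusted p below 0.01, 8 with the replicate block, 10 with an odd/even term and 8 in replicates 1 and 3 only; those called lower (1) were 2 with RLE factors, 2 with the filter of 1 CPM in 4 libraries, 3 with the block, 4 with the odd/even term, 3 in replicates 1 and 3 and 0 at an adjusted p below 0.01. Leaving out single libraries gave 3 to 5 receptor genes higher and 0 to 1 lower, 4 cytolytic genes higher and 2 to 3 lower, 2 to 3 NK receptor genes higher and 0 lower, 7 to 9 T lineage genes higher (below 10 whichever library was left out) and 1 lower, and 5 to 7 transcription factors higher and 4 lower. Cytolytic genes called higher (4) were 7 with the block and 7 with the odd/even term. NK receptor genes called higher (3) were 8 with the block, 7 with the odd/even term and 6 in replicates 1 and 3, where 1 was lower. T lineage genes called higher (10 with all libraries) were 5 at an adjusted p below 0.01, and those called lower (1) were 3 with the block, 3 with the odd/even term, 2 in replicates 1 and 3 and 3 in replicates 2 and 4. Transcription factors called higher (7) were 4 at an adjusted p below 0.01, and those called lower (4) were 7 with the odd/even term. A stricter threshold calls fewer genes by construction. Over all genes tested, the replicate block called 15.1% higher and 14% lower, against 7.41% and 5.42% without it. Shares over all genes are not given here for the other settings, and the cause of the other shifts was not tested. Values not called and close to 0 changed sign: the SRGN log2 fold change was -0.0043 in replicates 2 and 4 and -0.013 to 0.046 without single libraries; the CD96 log2 fold change was 0.010 on library sizes only, 0.0099 by limma on log2(RPKM + 1), 0.010 on log2(RPKM + 0.1), 0.020 in replicates 1 and 3 and -0.018 to 0.012 without single libraries; the UBE4A log2 fold change was -0.016 to 0.066 without single libraries. At these depths no difference was detectable for CD3E, CD3G, CD247 and CD2, each under 10 counts in every library.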
